A study of Homo sapiens with 12 samples.

Results

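The unfolded protein response sensors and endoplasmic reticulum (ER) chaperones described here are 10 genes fixed by name: the sensors ERN1 (IRE1), EIF2AK3 (PERK) and ATF6, the transcription factor XBP1, the chaperones HSPA5, HSP90B1, CALR and SDF2L1, the disulfide isomerase PDIA4 and the degradation factor HERPUD1. All 10 were found, among 55514 genes listed in one table and 44389 in another, and all passed the filter on low values in both. The study sequenced total RNA from 12 libraries of Jurkat cells, a line from a human T cell leukaemia, all grown in RPMI with 10% FCS. In the first table, 3 libraries with the genotype Dox-induced ZNF683 stand beside 3 Mock libraries, and the labels do not say whether Mock cells received doxycycline. In the second, the libraries of both groups are titled Hobit, the protein that ZNF683 encodes. The 3 Dox+ libraries were grown with doxycycline (1 ug/uL in the labels), and the 3 Dox- libraries without it. Both set Jurkat libraries labelled Dox-induced ZNF683 or Dox+ beside libraries that were not. ZNF683 is a zinc finger transcription factor of effector and tissue-resident lymphocytes. In the second table every Dox+ library has the Hobit title, so effects of doxycycline itself and of the factor cannot be told apart. The promoter that drives the factor, the number of clones and what a replicate number marks are not given in the sources used here. No label says that replicates were separate cultures; the spread behind each p-value may therefore be technical only.

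The unfolded protein response adjusts the folding capacity of the ER to its load of secreted and membrane proteins. BiP, the product of HSPA5, binds the sensors when few clients are unfolded and leaves them when many are. Freed IRE1 splices the XBP1 message, freed ATF6 is cut in the Golgi into a transcription factor, and freed PERK phosphorylates eIF2-alpha, which lowers translation and raises ATF4. Activated T cells, like plasma cells, are known to use this response as they begin to secrete. Gene-level values cannot show the splicing of XBP1, the cutting of ATF6 or the phosphorylation of PERK, so what follows is the amount of each message only.

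The RefSeq promoters of the 10 genes (GRCh38.p14, 10 of 10 matched by symbol) were searched because the classical elements of this response lie close to the start of transcription. Both strands of the 250 bases before each start were read for the ER stress response element ERSE (CCAAT and CCACG with any 9 bases between), its second form ERSE-II (ATTGG and CCACG with any 1 base between), the XBP1 element UPRE (TGACGTGG) and the C/EBP-ATF element CARE (TGATGNAAN). ERSE was found in XBP1, HSPA5, HSP90B1 and CALR, that is in 4 of the 10 genes, and in 26 of 35116 promoters in all (0.0740%). ERSE-II was found in HERPUD1 and SDF2L1, and in 18 promoters in all (0.0513%). UPRE was found in none of the 10 and in 215 promoters (0.612%), and CARE in HERPUD1 and in 1100 promoters (3.13%). Each ERSE holds a CCAAT box, a motif of 32.0% of all promoters and of 9 of the 10 genes. A match describes these letters only. The motifs were picked as classical elements of this response, so shares in its genes beside all promoters are no test of enrichment. The stretches of the 3 genes on which the results turn, XBP1, HSPA5 and HERPUD1, run 5′ to 3′ along the gene, up to the RefSeq start or, where it comes earlier, the start of the GENCODE v29 gene model. Capitals mark a match.
XBP1, chr22:28800598-28800819, minus strand, ERSE at 52 to 34 bases before the start: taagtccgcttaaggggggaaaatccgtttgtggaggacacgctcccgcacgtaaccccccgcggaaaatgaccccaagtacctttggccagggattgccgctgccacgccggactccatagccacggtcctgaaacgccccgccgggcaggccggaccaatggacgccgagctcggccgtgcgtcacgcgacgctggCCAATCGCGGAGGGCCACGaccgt
HSPA5, chr9:125241344-125241593, minus strand, ERSE at 66 to 48 bases before the start: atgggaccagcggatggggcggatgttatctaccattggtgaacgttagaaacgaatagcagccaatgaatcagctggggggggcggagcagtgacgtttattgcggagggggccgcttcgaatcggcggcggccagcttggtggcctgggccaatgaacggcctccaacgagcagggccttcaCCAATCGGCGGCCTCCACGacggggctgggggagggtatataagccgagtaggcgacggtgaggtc
HERPUD1, chr16:56931892-56932047, plus strand, CARE on the opposite strand at 177 to 169 and ERSE-II at 117 to 107 bases before the start: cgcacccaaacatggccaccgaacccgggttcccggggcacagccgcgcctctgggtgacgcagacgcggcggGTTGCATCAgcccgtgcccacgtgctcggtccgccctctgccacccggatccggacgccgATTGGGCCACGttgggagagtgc
The matches of the other 3 genes are shown alone, to compare their letters with those above. HSP90B1 holds one on each strand, and those of CALR and SDF2L1 lie on the strand opposite to the gene.
HSP90B1, chr12:103930216-103930234, plus strand: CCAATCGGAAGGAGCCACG
HSP90B1, chr12:103930321-103930339, plus strand: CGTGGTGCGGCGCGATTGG
CALR, chr19:12938384-12938402, plus strand: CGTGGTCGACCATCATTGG
SDF2L1, chr22:21642114-21642124, plus strand: CGTGGACCAAT
None of the 4 motifs was found in the 250 bases before the RefSeq starts of ERN1, EIF2AK3, ATF6 and PDIA4, so the matches fell in the chaperones, HERPUD1 and XBP1 and in none of the 3 sensors.

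Values are TPM, a length-normalized abundance with a fixed total per library, and the read depth of each library is unknown. Totals ran from 992727 to 998497 TPM. One short RNA, AL135790.1, took 50.7% of Dox- library 1, 12.8% of Dox- library 2 and 4.94% to 10.5% of the other 10 libraries, which lowers every other TPM in Dox- library 1. Changes were therefore taken on TPM divided by a median-of-ratios factor of each library (scaled TPM), which was 0.571 for Dox- library 1, 1.03 to 1.20 for the other Dox libraries and 0.938 to 1.08 in the first table. Dox- library 2 stood apart in another way: the stress gene HSPA6 was at 637 TPM there and at 0.113 to 0.351 TPM in the other 5 libraries of its table. ZNF683 itself was low. The libraries labelled ZNF683 held 1.17, 1.76 and 1.04 TPM of it and Mock libraries 0.715, 1.59 and 0.681, which overlap. It was at 0.453, 0.774 and 0.571 TPM in Dox+ and 0.115, 0.239 and 0.451 in Dox-. All 12 T cell line markers averaged at least 1 TPM in each group. Their summed level was 4452 to 4866 TPM in ZNF683, 4224 to 4912 in Mock, 3702 to 4024 in Dox+ and 1614 to 3300 in Dox-. The Dox- sums lay below Dox+ without overlap in TPM as deposited. Marker sums were not scaled, so the 50.7% share of AL135790.1 lowers those of Dox- library 1. Of 8 B and plasma cell markers, which matter for XBP1, CD79A averaged at least 1 TPM in each group and PAX5 in ZNF683 and Mock. Summed levels of the 8 were 39.0 to 56.3 TPM in ZNF683, 42.2 to 59.5 in Mock, 26.8 to 31.0 in Dox+ and 12.4 to 25.2 in Dox-. TNFRSF17, the plasma cell receptor BCMA, was at 0 in all Dox+ libraries. None of 6 monocyte and macrophage markers reached a mean of 1 TPM in any group. Summed levels of 5 fibroblast, 5 epithelial and 4 erythroid markers stayed at or under 6.60 TPM in ZNF683, Mock and Dox+, and reached 18.1, 3.51 and 35.0 TPM in the highest Dox- library. The part of these markers in the results was not tested. In bulk RNA, fewer cells that express a gene and less RNA per cell cannot be told apart.

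By mean level, the chaperones stood above the sensors in all 4 groups. HSPA5, the HSP70 of the ER, had the highest mean level, at 500 ± 116 TPM (SD, n = 3) in ZNF683, 346 ± 135 in Mock, 252 ± 52.4 in Dox+ and 251 ± 135 in Dox-. HSP90B1, the HSP90 of the ER, came next, at 265 ± 35.1, 211 ± 43.5, 236 ± 16.3 and 196 ± 75.5 TPM in the same order. The lowest HSPA5 library lay above the highest HSP90B1 library in ZNF683 and Mock, while their ranges overlapped in Dox+ and Dox-. PDIA4 and CALR, the lectin chaperone calreticulin, followed in ZNF683, Mock and Dox+ at means of 146 to 208 TPM, and their ranges overlapped in each of those groups. XBP1 stood at 98.2 to 160 TPM, and SDF2L1, a partner of BiP complexes, at 47.2 to 107. HERPUD1, a membrane protein of the ligase complex for ER-associated degradation, was at 67.9 to 92.4 TPM in 3 groups and at 150 ± 142 in Dox-, where 1 library held 312.

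The 3 sensors took the last 3 ranks by mean in every group. In Dox-, the range of ATF6 (23.5 to 46.7 TPM) overlapped that of SDF2L1 (19.2 to 70.0). ATF6 was at 49.3 ± 6.76 TPM in ZNF683, 46.9 ± 5.86 in Mock, 40.8 ± 1.08 in Dox+ and 32.8 ± 12.3 in Dox- (SD, n = 3). EIF2AK3 was at 8.60 ± 1.36, 6.70 ± 0.396, 8.31 ± 0.633 and 7.03 ± 2.24 TPM in that order. ERN1 was the lowest of the 10, at 4.09 ± 0.205, 5.66 ± 0.389, 2.08 ± 0.165 and 3.19 ± 2.83 TPM. Each library of ATF6 was above each of EIF2AK3 within its group, and each of EIF2AK3 above each of ERN1 except in Dox-, where their ranges overlapped. Levels of the 2 tables were set on different gene lists and were not tested against each other.

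**Figure D1:**
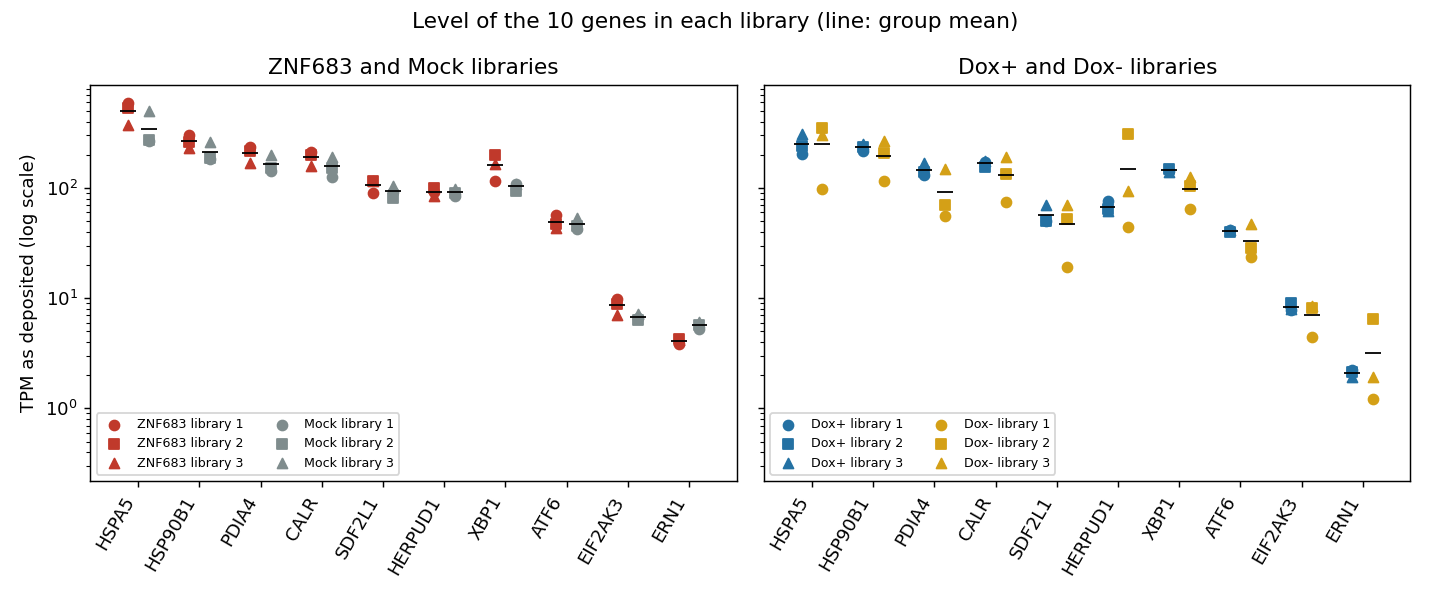
TPM of the 10 genes in each library on a log scale, in the ZNF683 and Mock table (left) and the Dox+ and Dox- table (right), with a short line at each group mean. HSPA5 has the highest mean in each group and ERN1 the lowest, HERPUD1 stands at 312 TPM in Dox- library 2, and most Dox- library 1 points lie low.

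In the libraries labelled ZNF683, 9 of the 10 genes had a positive log2 change against Mock, led by XBP1 (0.65) and HSPA5 (0.62), and ERN1 alone had a negative one. None passed the test across all genes. Of 16588 genes tested with limma, 7 were called at an adjusted p under 0.05 (0.0422%), and 0 of the 10 were among them. At an unadjusted p under 0.05, 3 of the 10 passed, XBP1, ERN1 and EIF2AK3, against 14.5% of all genes. A positive change was found in 61.9% of all genes and a negative one in 38.1%, and the median log2 change was 0.34 over the 10 genes and 0.07 over all genes tested. Log2 changes are differences of mean log2(scaled TPM + 1), which understates changes of low genes, and are given ± standard error.

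XBP1, the transcription factor downstream of IRE1, was at 116, 198 and 167 TPM in ZNF683 libraries 1, 2 and 3 and at 108, 93.1 and 109 in Mock. Every ZNF683 library was above every Mock library, with library 1 just above them and libraries 2 and 3 clearly so. The log2 change was 0.65 ± 0.21 (95% interval 0.17 to 1.12), with a limma adjusted p of 0.291 and a two-sided exact permutation p of 0.10, the smallest that 3 against 3 allows. The groups also kept apart without scaling, but met when the factors came from the tested genes alone or from the 75th percentile. Its processed pseudogene XBP1P1 was at most 0.429 TPM.

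The changes of the 3 sensors differed in sign. ERN1, the IRE1 gene, was at 3.86, 4.25 and 4.15 TPM in ZNF683 and at 5.25, 5.70 and 6.03 in Mock. All ZNF683 libraries lay below all Mock libraries, under each of 4 scalings. The log2 change was -0.35 ± 0.11 (limma adjusted p = 0.286, exact permutation p = 0.10). EIF2AK3, the PERK gene, was at 9.76, 8.92 and 7.11 TPM in ZNF683 against 6.56, 6.39 and 7.15 in Mock. ZNF683 library 3 was just under the highest Mock library as deposited and above it after scaling, and the change was 0.35 ± 0.14 (limma adjusted p = 0.328, exact permutation p = 0.10). ATF6 was at 56.7, 47.4 and 43.6 TPM in ZNF683 against 42.5, 44.8 and 53.6 in Mock, fully intermixed, with a change of 0.12 ± 0.14 (limma adjusted p = 0.675). Of the 10 genes, 2 were higher without overlap, XBP1 and EIF2AK3, and 1 was lower, ERN1, where 11.8% and 7.24% of all genes were.

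The chaperones shared a pattern by library. HSPA5 was at 592, 538 and 370 TPM in ZNF683 and at 265, 272 and 502 in Mock. ZNF683 libraries 1 and 2 were high, and Mock library 3 was above ZNF683 library 3, so the groups overlapped. The change was 0.62 ± 0.28 (95% interval -0.02 to 1.25, limma adjusted p = 0.351, exact permutation p = 0.20), and with 1 library left out it ran from 0.43 without Mock library 2 (limma adjusted p = 0.767) to 0.91 without Mock library 3 (limma adjusted p = 0.110). HSP90B1 was at 301, 263 and 231 TPM against 184, 188 and 262, the same layout, with a change of 0.39 ± 0.17 (limma adjusted p = 0.349). PDIA4, which forms and rearranges disulfide bonds, was at 235, 219 and 169 TPM against 143, 151 and 201, with a change of 0.39 ± 0.18 (limma adjusted p = 0.355). CALR, which holds glycoproteins in their folding cycle, was at 211, 198 and 160 TPM against 126, 153 and 193, with a change of 0.33 ± 0.17 (limma adjusted p = 0.377). In all 4 of these chaperones Mock library 3 was the highest Mock library and ZNF683 library 3 the lowest ZNF683 library. This layout was not theirs alone. The heat shock list described below had medians of 0.37, 0.23 and -0.01 in ZNF683 and -0.03, -0.24 and 0.30 in Mock, as log2 against the Mock mean. The translocation list and the PERK and ATF4 branch had another layout, with Mock library 1 the highest Mock library. In the ER to Golgi traffic list Mock library 1 was also highest, by little (0.02 beside 0.0011 in Mock library 3). Mock libraries 1 and 3 were level in the UPR sensor list (0.05) and the N-glycosylation list (0.04). SDF2L1 was at 90.9, 116 and 115 TPM against 92.7, 82.0 and 105, with a change of 0.25 ± 0.16 (limma adjusted p = 0.437), and there ZNF683 library 1 was the low one. HERPUD1 was at 92.4, 99.6 and 85.3 TPM against 85.3, 91.1 and 97.6, with the smallest change of the 10, 0.07 ± 0.12 (limma adjusted p = 0.779).

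Seen by library, the median of the 10 genes lay 0.41 and 0.42 above the Mock mean on the log2 scale in ZNF683 libraries 1 and 2, and 0.09 above it in library 3. It was -0.0048, -0.17 and 0.16 in Mock libraries 1, 2 and 3. All 10 genes were above the Mock mean in Mock library 3 and none in Mock library 2. On the same scale, the medians of the wider gene lists described below were -0.24 to -0.05 in Mock library 2. In Mock library 3 they were -0.07 to 0.30. At an unadjusted p under 0.05, 7 of the 10 genes passed when either ZNF683 library 3 or Mock library 3 was left out. That count was 1 when Mock library 2 was left out, and the count called stayed at 0 in each. Over all genes tested, 2411 passed at an unadjusted p under 0.05 with all libraries. More of them passed without either library 3 and fewer without Mock library 2, so the shift was not particular to the 10 genes. The summed level of the 10 was 1708, 1694 and 1351 TPM in ZNF683 and 1058, 1087 and 1536 in Mock.

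**Figure D2:**
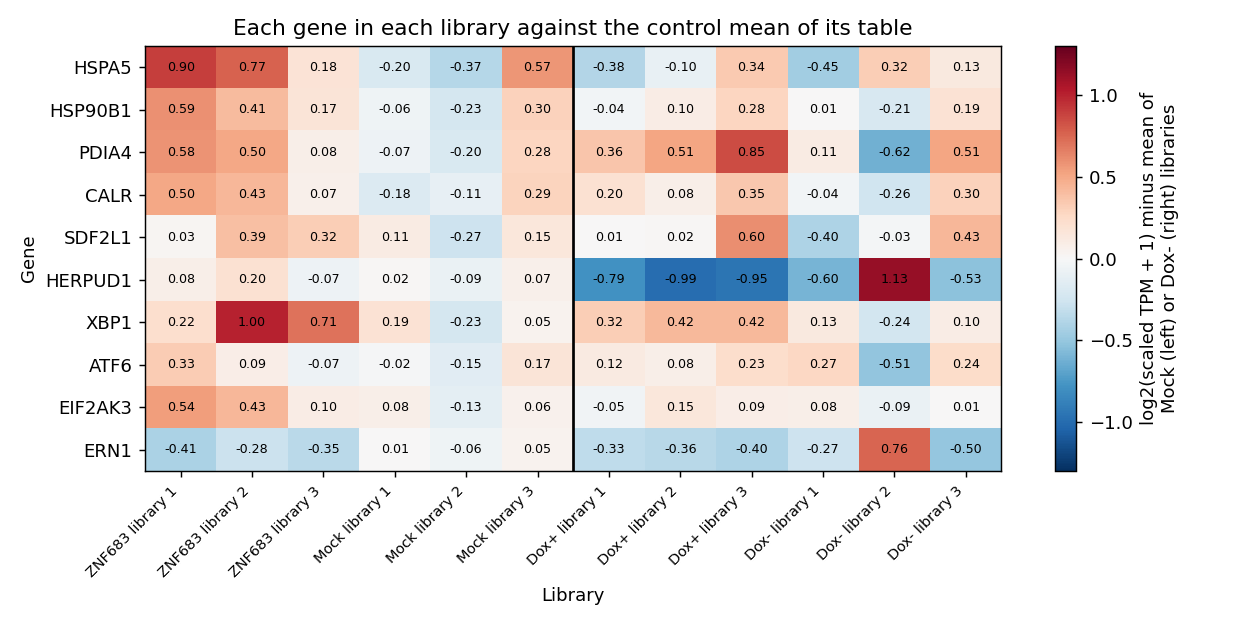
Log2(scaled TPM + 1) of each gene in each of the 12 libraries minus the mean of the 3 Mock (left) or 3 Dox- (right) libraries, red above and blue below. HSPA5, HSP90B1, PDIA4 and CALR are high in ZNF683 libraries 1 and 2 and in Mock library 3, XBP1 is highest in ZNF683 library 2 (1.00), and HERPUD1 (1.13) and ERN1 (0.76) are high in Dox- library 2.

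With doxycycline, the median change of the 10 genes was that of all genes, with XBP1 and HERPUD1 as the 2 whose groups did not overlap. In Dox+ against Dox-, 7 of 10 had a positive log2 change, beside 64.4% of all genes, and 3 a negative one, beside 35.6%, and the median was 0.13 over the 10 and 0.13 over all genes tested. Limma called 1 of 15148 genes (0.00660%), and 0 of the 10. At an unadjusted p under 0.05, 1 of the 10 passed, XBP1, against 3.04% of all genes. Without scaling, the median was 0.35 over the 10 genes and 0.32 over all genes. Of the 10, 1 was higher without overlap, XBP1, where 9.34% of all genes were, and 1 was lower, HERPUD1, where 3.72% were. In TPM as deposited XBP1 kept apart and HERPUD1 did not.

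XBP1 was at 143, 150 and 140 TPM in Dox+ libraries 1, 2 and 3 and at 64.1, 104 and 127 in Dox-. In scaled TPM these are 128, 137 and 137 against 112, 86.6 and 110, so each Dox+ library was above each Dox- library, under all 4 scalings. The log2 change was 0.38 ± 0.16 (95% interval 0.00084 to 0.77, limma adjusted p = 0.688, exact permutation p = 0.10). It was 0.26 without Dox- library 2 and 0.29 without Dox- libraries 1 and 2. In scaled TPM, XBP1 was the only one of the 10 whose groups kept apart in the same direction in both tables. Higher without overlap were 11.8% of all genes in the first table and 9.34% in the second, and the share in both was not counted. In the first table the XBP1 groups met with factors from the tested genes or the 75th percentile.

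HERPUD1 had the largest change of the 10 in either comparison, and its size moved with 1 library. It was at 76.5, 65.0 and 62.3 TPM in Dox+ and at 44.3, 312 and 94.6 in Dox-, or 68.3, 59.2 and 60.6 against 77.6, 260 and 81.9 in scaled TPM. Dox- library 2 was 3.18 times the highest of the other 5 libraries. The log2 change was -0.91 ± 0.45 (limma adjusted p = 0.688, exact permutation p = 0.10), and -0.35 without Dox- library 2. ERN1 was at 2.23, 2.12 and 1.91 TPM in Dox+ and at 1.21, 6.42 and 1.92 in Dox-. Its scaled level in Dox- library 2, 5.36, was 2.53 times the highest of the other 5, which ran from 1.66 to 2.12. The change of ERN1 was -0.36 ± 0.33 (limma adjusted p = 0.688) with that library and 0.02 without it.

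The other sensors and chaperones overlapped between Dox+ and Dox-. ATF6 was at 37.1, 36.0 and 40.1 scaled TPM in Dox+ and 41.1, 23.6 and 40.4 in Dox-, where library 2 was the low one. Its log2 change was 0.14 ± 0.24, and -0.11 without Dox- library 2. EIF2AK3 was at 7.01, 8.23 and 7.82 scaled TPM against 7.79, 6.80 and 7.35, a narrow range, with a change of 0.06 ± 0.16 that was -0.07 and -0.08 under 2 other scalings. HSPA5 was at 182, 221 and 299 scaled TPM against 173, 296 and 260, with a change of -0.05 ± 0.27 (95% interval -0.68 to 0.58) that was 0.18 in TPM as deposited. HSP90B1 was at 195, 215 and 244 scaled TPM against 203, 174 and 230, with a change of 0.11 ± 0.17, and 0.01 without Dox- library 2. PDIA4 was at 116, 128 and 163 scaled TPM against 97.6, 58.3 and 128. It was lowest in Dox- library 2, where HERPUD1 was highest, and its change was 0.57 ± 0.30, 0.26 without that library and 0.07 without Dox- libraries 1 and 2. CALR was at 154, 141 and 170 scaled TPM against 130, 112 and 164, with a change of 0.21 ± 0.19, and 0.08 without Dox- library 2. SDF2L1 was at 45.2, 45.4 and 68.4 scaled TPM against 33.7, 43.6 and 60.6, with a change of 0.21 ± 0.27, and 0.03 without Dox- library 1. Limma adjusted p-values of these 7 genes ran from 0.688 to 0.932.

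**Figure D3:**
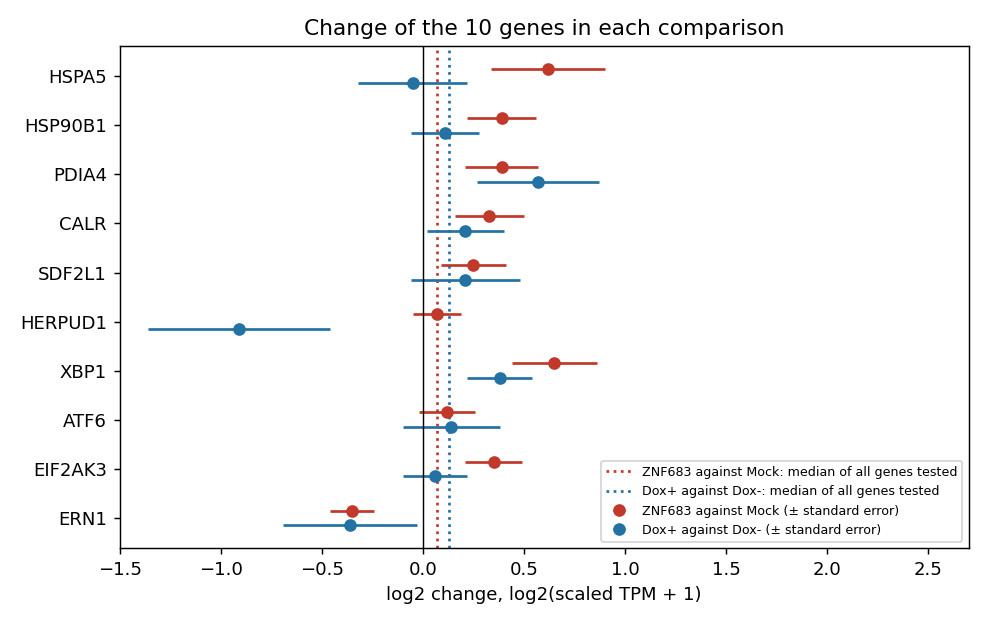
Log2 change of each gene with its standard error, ZNF683 against Mock in red and Dox+ against Dox- in blue, with dotted lines at the median of all genes tested (0.07 and 0.13). The red points lie right of their line except HERPUD1, which is on it, and ERN1; HERPUD1 has the widest blue bar, -0.91 ± 0.45.

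The 2 effects were compared directly in 1 fit over all 12 libraries. Of 14468 genes tested, 1 was called (0.00691%), and 0 of the 10 were, nor did any of them reach an unadjusted p under 0.05. HERPUD1 had the largest difference, ZNF683 effect minus doxycycline effect, at 0.98 ± 0.50 on the log2 scale, followed by HSPA5 at 0.66 ± 0.42 and EIF2AK3 at 0.29 ± 0.21. XBP1 differed by 0.26 ± 0.28 and ERN1 by 0.01 ± 0.36. Limma adjusted p-values of the 10 genes ran from 0.983 to 0.999, so no difference between the comparisons was shown for any of them.

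Dox- library 2 was unlike the other 5 libraries of its table in a subset of stress genes, while most ER chaperones were not high in it. DDIT3, which encodes the PERK-branch factor CHOP, was at 143 scaled TPM there and at most 22.0 in the others. PPP1R15A, the GADD34 gene that reverses eIF2-alpha phosphorylation, was at 279 scaled TPM against 9.73 to 12.5. The cytosolic HSP70 gene HSPA1B was at 469 scaled TPM against 5.16 to 7.86. MANF, a secreted ER stress protein, was at 0.231 times the highest of the others, which held 47.8 to 73.4 scaled TPM, and below them all, as PDIA4 was. Of the 10 genes, 2 were highest in this library and 6 lowest, beside 25.3% and 52.2% of all genes tested. The part of this library's other differences in the values of HERPUD1 and ERN1 was not tested. DDIT3, PPP1R15A, HSPA1B and the genes plotted beside them were chosen after their values were seen.

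**Figure D4:**
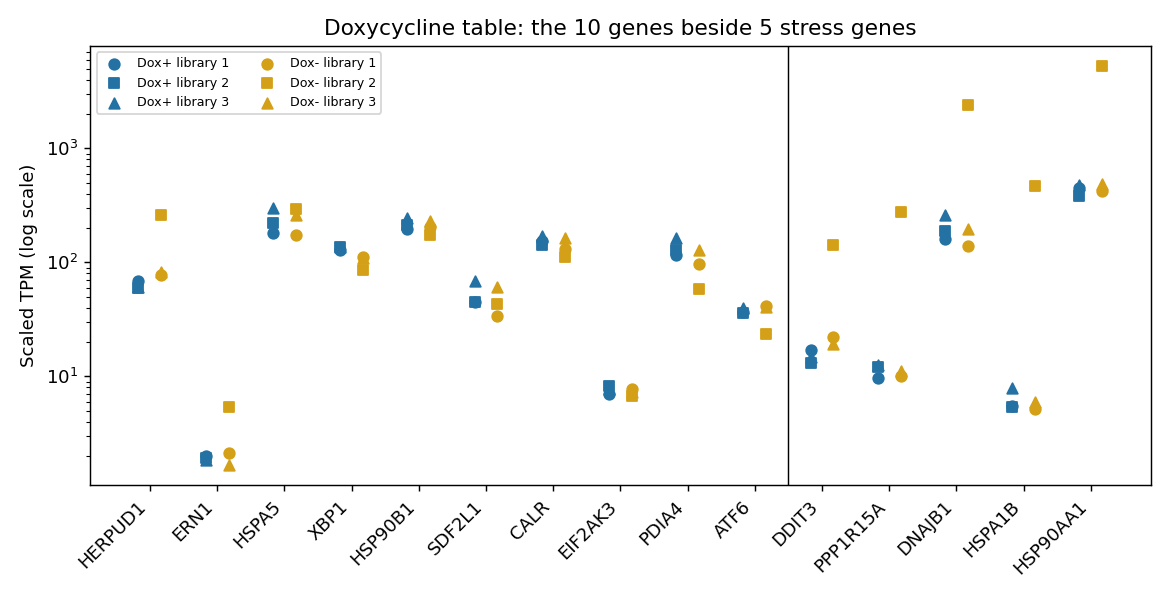
Scaled TPM on a log scale of the 10 genes (left of the line) and 5 stress genes (right) in the 6 libraries of the doxycycline table. Dox- library 2 (yellow squares) is highest for HERPUD1 (260), ERN1 (5.36) and all 5 stress genes. It is lowest for PDIA4 (58.3), ATF6 (23.6), XBP1 (86.6), HSP90B1 (174), CALR (112) and EIF2AK3 (6.80).

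Across the 12 libraries, centred within each table, HSP90B1, PDIA4 and CALR were alike in pattern. HSPA5 was like them in the first table, and in the second its likeness depended on Dox- libraries 1 and 2. Pearson's r, given as a description over libraries that share their table and its scaling, was 0.913 for HSP90B1 and CALR, 0.896 for PDIA4 and CALR and 0.840 for HSP90B1 and PDIA4. HSPA5 had an r of 0.771 with HSP90B1, 0.660 with CALR and 0.414 with PDIA4. Within the ZNF683 and Mock table these 3 were 0.985, 0.981 and 0.989, and within the Dox libraries they were 0.205, 0.0599 and -0.0498. Over both tables without Dox- libraries 1 and 2 they were 0.974, 0.904 and 0.868. ERN1 and HERPUD1 had an r of 0.863 that was 0.335 without Dox- libraries 1 and 2. XBP1 had an r of 0.600 with PDIA4, 0.544 with HSP90B1, 0.508 with CALR, 0.287 with HSPA5 and -0.388 with HERPUD1. Among 9633 genes that averaged 5 TPM or more in both tables, those most like HSPA5 were DDX27 (r = 0.977), SRRT (0.968), ANKRD27 (0.963), GLB1L2 (0.963) and IGF2BP1 (0.961), while HSP90B1 ranked 337, CALR 781 and PDIA4 2253. Those most like XBP1 were PTPRA (0.975), MAPKAP1 (0.974), CDKN2C (0.971), REPS1 (0.971) and ARMC10 (0.970), and its nearest among the 10 genes, PDIA4, ranked 2015.

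The wider pathway was described with 10 lists holding 180 genes, which include the 10 above. In ZNF683 against Mock no list held a gene called higher. The ER HSP70, HSP90 and lectin chaperones had 15 of 19 positive changes and a median of 0.29, beside 61.9% and 0.07 for all genes. Besides the genes already named, DNAJB11, a BiP co-chaperone, was at 110, 113 and 89.7 TPM in ZNF683 and 73.9, 77.4 and 87.5 in Mock, groups that did not overlap (0.43 ± 0.14, limma adjusted p = 0.290). PPIB, the cyclophilin of the ER, was at 226, 251 and 245 TPM against 193, 187 and 213, also apart (0.34 ± 0.12, limma adjusted p = 0.315). ER-associated degradation had 22 of 24 positive changes with a median of 0.16, among them UFD1 (0.39 ± 0.14) and SEL1L (0.40 ± 0.16), which act in the export of misfolded proteins from the ER. N-glycosylation and glycan trimming had 18 of 20 (median 0.15) and ER translocation and signal peptidase 18 of 22 (0.12). Protein disulfide isomerases and ER oxidation had 14 of 18 (0.12) and ER to Golgi traffic 15 of 19 (0.10). Minus the median of all genes, these medians were 0.07, 0.04, 0.05 and 0.03 in this order. Once the filter was raised to 5 TPM they were 0.02, -0.01, -0.01 and -0.03, so these lists then lay near all genes. Under that filter the chaperones were still at 0.16 and degradation at 0.06. UPR sensors and proximal factors had 11 of 14 (0.15). The PERK and ATF4 branch had 10 of 16 and a median of 0.06, close to that of all genes. ER calcium handling had 10 of 12 (0.16), led by ATP2A3, a calcium pump of the ER, at 178, 230 and 166 TPM against 106, 104 and 152 (0.72 ± 0.19, limma adjusted p = 0.271). In the heat shock list, 10 of 14 were positive (0.22), and HSPA6 fell, from 6.85, 5.88 and 4.06 TPM in Mock to 0.515, 0.399 and 0.618 in ZNF683 (log2 change -2.08 ± 0.19, limma adjusted p = 0.0134), the single list gene called in either comparison on scaled TPM. The HSPA6 call was lost under 6 of 16 alternatives, which were leaving out ZNF683 library 2 (limma adjusted p = 0.0886), ZNF683 library 3 (0.121) or Mock library 2 (0.0945), a pseudocount of 5 (0.0563), no filter (0.193) and a fit over all 12 libraries (0.820).

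In Dox+ against Dox- most ER lists lay near the median of all genes, 0.13. The median was 0.16 for the chaperones (12 of 19 positive), 0.19 for disulfide isomerases (13 of 18), 0.09 for degradation (17 of 24), 0.21 for translocation (19 of 22), 0.21 for N-glycosylation (17 of 19), 0.18 for traffic (15 of 19) and 0.14 for UPR sensors and proximal factors (11 of 13). The PERK and ATF4 branch was the exception, with 1 of 15 positive, 14 negative and a median of -0.68. Dox- library 2 was the highest of the 6 libraries for 11 of those 15 genes, and without it 3 of 15 were positive with a median of -0.33, beside 0.04 for all genes. Relative to all genes, the median of this list was -0.81 with all libraries, -0.37 without Dox- library 2 and -0.16 without Dox- libraries 1 and 2. CHAC1, a glutathione-degrading target of ATF4, was at 15.6, 9.56 and 6.36 TPM in Dox+ and 11.1, 29.7 and 28.7 in Dox-. After scaling its groups did not overlap, and the change was -1.24 ± 0.29 (limma adjusted p = 0.688), or -1.18 without Dox- library 2. ATP2A3 was again higher, at 115, 135 and 122 TPM against 39.5, 56.5 and 114 (0.73 ± 0.27, limma adjusted p = 0.688), and at 0.46 without Dox- library 2. ER calcium handling had a median of 0.19 (8 of 12 positive). The heat shock list had 5 of 15 positive and a median of -0.14, and 9 of 13 and 0.13 without Dox- library 2. These counts are over different genes. Genes such as HSPA6, which passed the filter only through Dox- library 2, could only be negative with it and dropped out without it. None of these genes was called on scaled TPM, while in TPM as deposited 3 genes of the heat shock list were called and 0 of the other lists.

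**Figure D5:**
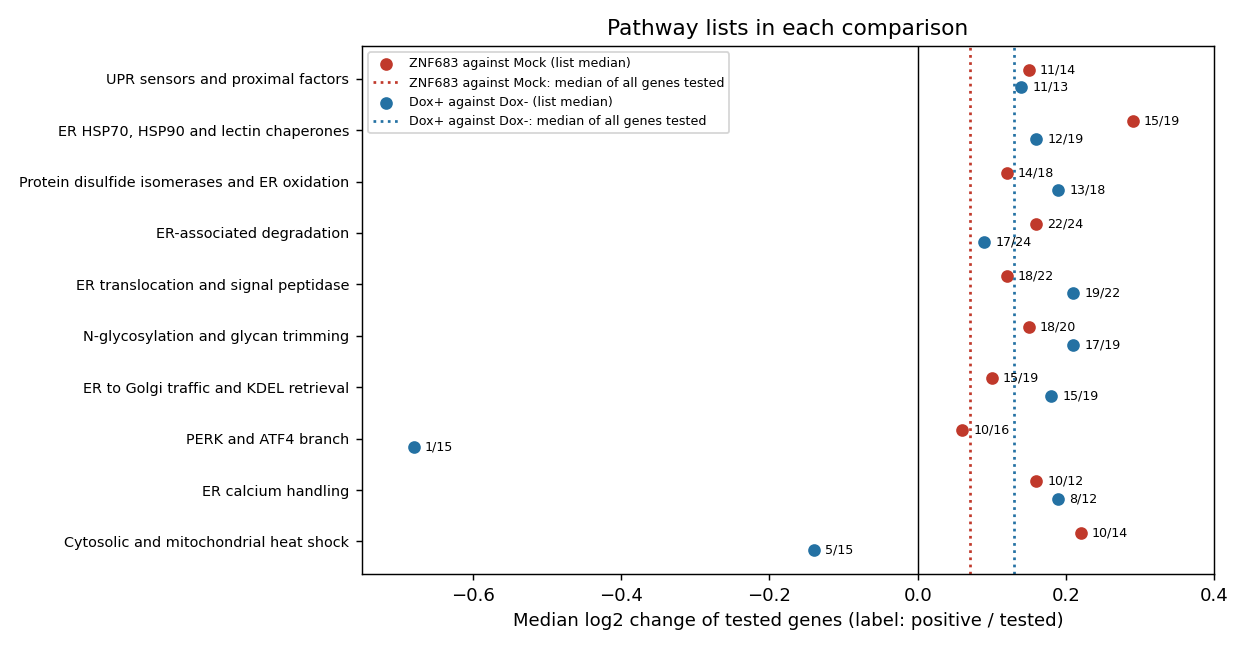
Median log2 change of the tested genes of each of 10 lists, ZNF683 against Mock in red and Dox+ against Dox- in blue; labels give positive over tested genes and dotted lines the median of all genes tested. The chaperones have the highest red median (0.29), and the PERK and ATF4 branch has the lowest blue one (-0.68).

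The promoter motifs were then set beside the changes of genes outside the 10. Of the genes with ERSE, 11 others were tested, among them CANX, PDIA6, CRELD2 and FICD. In ZNF683 against Mock 7 of the 11 were positive with a median of 0.22, beside 0.11 for all 10145 tested genes with a promoter. In Dox+ against Dox- 8 were positive with a median of 0.17, beside 0.16. The 9 other genes with ERSE-II, HYOU1 among them, had 7 positive and a median of 0.12 in the first comparison, and 8 positive and 0.14 in the second. None of these genes was called.

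Positions are from GENCODE v29 on GRCh38. XBP1 lies on chromosome 22 (28794555 to 28800597, minus strand), HSPA5 on chromosome 9 (125234853 to 125241330, minus), ERN1 on chromosome 17 (64039142 to 64130819, minus), EIF2AK3 on chromosome 2 (88556741 to 88627576, minus), ATF6 on chromosome 1 (161766294 to 161964070, plus) and HERPUD1 on chromosome 16 (56932048 to 56944863, plus). HSP90B1 lies on chromosome 12 (103930107 to 103953645, plus), CALR on chromosome 19 (12938578 to 12944489, plus), SDF2L1 on chromosome 22 (21642261 to 21644298, plus) and PDIA4 on chromosome 7 (149003062 to 149028641, minus). The antisense gene AC092069.1 overlaps CALR and was listed at 43.1 to 125 TPM in the first table and 28.5 to 97.4 in the second. C12orf73 on the strand opposite to HSP90B1 was at 27.1 to 40.5 and 21.3 to 39.2 TPM, and AC062029.1, antisense to EIF2AK3, at 1.48 to 1.97 and 1.17 to 2.82. Whether reads were assigned by strand is not given in the sources used here, so CALR, HSP90B1 and EIF2AK3 may share reads with them. The copies HSP90B2P and HSP90B3P of HSP90B1 were at most 1.31 and 0.170 TPM.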

How the data were processed

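Total RNA of 12 Jurkat libraries was sequenced after Qiagen RNeasy extraction and NEBNext single-cell/low input library preparation, per the labels' protocols. The authors deposited 2 tables of TPM per gene symbol. Tools named in the submitters' processing notes, without a role, are DESeq2 1.22.2 and kallisto 0.46.0; build, transcript set and strand use are not given in the sources used here. TPM keeps no read number, so depth is unknown and no counting interval was given. Groups came from genotype labels and titles.

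TPM was divided by median-of-ratios factors within each table. Genes that averaged 1 TPM or more were tested on log2(scaled TPM + 1) with limma 3.58.1 in R 4.3.3 (trended empirical Bayes, two-sided, Benjamini-Hochberg, threshold 0.05), single genes also with exact permutation tests. The fit was tested on simulated data. The 10 genes, the lists and the tests were chosen with earlier results of these data known. Named besides the 10: up to 3 genes per list with the smallest p per comparison, and the 5 genes most like HSPA5 and XBP1. Alternatives covered scaling, pseudocount, filter, variance model, replicate block, a joint fit and leaving out libraries. No protein sequence was used here, and the values of 1 list gene are not reported here.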

Additional observations from a re-analysis of the deposited data

How the results depend on the processing

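No setting called any of the 10 genes in either comparison or in the difference between them. For the 10 genes, the median log2 change minus that of all genes tested was 0.27 in ZNF683 against Mock and 0.21 to 0.38 over 17 alternatives. In Dox+ against Dox- it was 0.0037 and -0.10 to 0.13 over 19. The number of genes called in ZNF683 against Mock was 7; it was 3 with a pseudocount of 0.1 or 5, 0 without the filter or with a mean of at least 5 TPM, 11 with robust empirical Bayes, 0 with all 12 libraries in 1 fit, and 0 to 59 with 1 library left out (59 when ZNF683 library 1 was left out, 58 for Mock library 3, 3 for ZNF683 library 2, 0 for Mock library 2). In Dox+ against Dox- the genes called were 1; they were 60 in TPM as deposited, 0 with factors from the genes tested (added after seeing the data), the 75th percentile, a pseudocount of 5, no filter or AL135790.1 left out, and 0 to 2 with 1 library left out. For the difference, 1 gene was called, and 2 in TPM as deposited. The causes were not tested.

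Replicate numbers are shared between groups, but no label says what they mark. Deviations of same-numbered libraries correlated at -0.201, 0.0524 and -0.252 in the first table and 0.00849, 0.0734 and 0.375 in the second, so the numbers were not taken to pair the samples. With a replicate block the genes called were 12 and 0, and 0 of the 10 genes.

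Of 169 alternative values of the 10 genes in ZNF683 against Mock, 166 kept the direction. ATF6 became -0.03 with 75th percentile scaling, and HERPUD1 -0.02 with factors from the genes tested and -0.08 with the 75th percentile. Of 189 in Dox+ against Dox-, 172 kept it. With factors from the genes tested, EIF2AK3 became -0.07 and HSP90B1 -0.03; with the 75th percentile, EIF2AK3 became -0.08, HSP90B1 -0.05 and ATF6 -0.01; without AL135790.1, EIF2AK3 became -0.01; in TPM as deposited, HSPA5 became 0.18. Without Dox- libraries 1 and 2, ATF6 became -0.10, ERN1 0.14, HSP90B1 -0.08, SDF2L1 -0.22 and CALR -0.09, and the list genes RTCB -0.06 and ERO1B 0.11. With 1 library left out, HSPA5 ranged from -0.26 to 0.12, ATF6 from -0.11 to 0.29 and ERN1 from -0.60 to 0.02. The XBP1 difference between the effects became -0.01 in TPM as deposited.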
